A study of Homo sapiens with 6 samples.

Results

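The genes described here are 38 that encode the aminoacyl-tRNA synthetases of human cells or proteins that work beside them. They were taken by name from a fixed list, which was chosen with earlier results of these data known. Each was found through its Ensembl identifier in a count table of 58381 gene identifiers. In GENCODE release 29, 17 of them carry an older symbol without the final number. Of the 38, 19 encode cytosolic synthetases, 16 mitochondrial synthetases, and 3 are accessory genes (AARSD1, AIMP1 and AIMP2). All 38 were among the 17219 genes with enough counts to test, with between 161 and 29861 counts per library. RNA was sequenced from MOLM-13, a human cell line derived from acute myeloid leukaemia with an MLL-AF9 fusion. The cells had been treated for 20 h with DB2115 at 5 µM, or with vehicle (0.001% DMSO) for the same time. Cells of both groups grew in RPMI medium with 10% serum. DB2115 is known from the labels only by this code name, and the title of the series refers to PU.1, a transcription factor of the ETS family that myeloid cells need, so the contrast asks how transcription in this line responded to the compound.

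The labels list 3 samples per group, but the count columns carry letters, and A and B could not be matched to replicate numbers. Results rest on these 2 columns per group, called libraries here, because the remaining column in either group equalled A plus B to within 1% in 98.5% (DB2115) and 98.4% (vehicle) of well counted genes and was left out. Total counts were 40067286 and 39647758 with DB2115, and 36547900 and 42446253 in vehicle. Whether A and B are separate cultures is not stated in the labels. The p-values therefore reflect only how these libraries differ, and that difference may be technical. All 10 myeloid markers checked were detected in every library, and their summed level was 1350 and 1300 CPM (counts scaled to the library total) with DB2115 and 1410 and 1400 CPM in vehicle. Single markers moved apart within that sum. MPO, a granule enzyme, had 305 and 294 CPM with DB2115, against 49.2 and 52.6 CPM in vehicle, and ITGAM, an integrin, 18.0 and 21.5 CPM with DB2115, against 1.94 and 2.69 CPM in vehicle. PTPRC, which encodes CD45, had 36.0 and 33.7 CPM with DB2115, against 197 and 198 CPM in vehicle, and FLT3, a receptor kinase, 141 and 146 CPM with DB2115, against 423 and 411 CPM in vehicle. Erythroid, epithelial and T cell markers summed to at most 1.40 CPM in any library. The 4 fibroblast markers summed to 46.2 and 58.7 CPM with DB2115 and 10.6 and 4.55 CPM in vehicle, mostly COL1A1. The 4 B cell markers summed to 23.4 and 26.5 CPM with DB2115 and 48.2 and 50.3 CPM in vehicle. The part of these markers in the results was not tested. The mitochondrially encoded share of counts was 7.65% and 6.93% with DB2115 and 4.91% and 5.64% in vehicle. Without the mitochondrially encoded genes, 19 cytosolic and 13 mitochondrial synthetase genes were called, as many as with them.

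Aminoacyl-tRNA synthetases join each amino acid to its own tRNA and so set the genetic code at the point of use. Most amino acids are served by separate nuclear genes for the cytosol and for the mitochondrion, whose own protein synthesis makes subunits of the respiratory chain. The enzymes fall into class I and class II by the fold of their catalytic core. In the cytosol several of them sit together in the multisynthetase complex, held by the scaffold proteins encoded by AIMP1 and AIMP2. Many cytosolic synthetase genes are transcriptional targets of ATF4, the factor made when the kinase GCN2 senses uncharged tRNA.

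Most synthetase genes fell with DB2115. A gene is called here when its Benjamini-Hochberg adjusted p in edgeR's quasi-likelihood test over all 17219 genes was under 0.05, and levels are CPM after TMM scaling, which measures a gene against the rest of the sequenced RNA. By that rule 34 of the 38 genes fell (89.5%), 1 rose (HARS2) and 3 were not called (PARS2, RARS2 and TARS2). Over all genes tested 31.3% fell and 32.7% rose. A fall of at least 2-fold was called for 14 members, against 9.53% of all genes. The groups did not overlap for 37 of the 38 members, 36 lower and 1 higher with DB2115, against 81.3% of all genes without overlap in either direction. The median log2 fold change was -0.91 over the cytosolic synthetases, -0.62 over the mitochondrial synthetases and -1.56 over the accessory genes, against 0.03 over all genes tested. All 19 cytosolic genes fell, 12 of 16 mitochondrial genes fell, and all 3 accessory genes fell. In bulk RNA, fewer cells of a type and less RNA per cell cannot be told apart.

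Summed over the genes, the cytosolic synthetases took 3183 and 3103 CPM with DB2115, against 5921 and 5983 CPM in vehicle, a level 1.89-fold lower. The mitochondrial synthetases summed to 544 and 541 CPM with DB2115, against 913 and 919 CPM in vehicle, 1.69-fold lower. The 38 genes together held 0.379% and 0.370% of the scaled reads with DB2115 and 0.697% and 0.704% in vehicle. Each of these sums was lower in every DB2115 library than in every vehicle library, by far more than replicate libraries differed. The log2 ratio of the cytosolic to the mitochondrial sum, which does not depend on scaling between libraries, was 2.55 and 2.52 with DB2115 and 2.70 and 2.70 in vehicle, a difference of -0.17. The cytosolic sum includes KARS1 and GARS1, genes that also make the mitochondrial enzyme. IARS2 alone held 134 and 140 CPM of the mitochondrial sum with DB2115, against 288 and 290 CPM in vehicle. An exact two-sided permutation test gave p = 0.333 for each sum and for the ratio, the smallest p that 2 libraries against 2 allow.

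**Figure D1:**
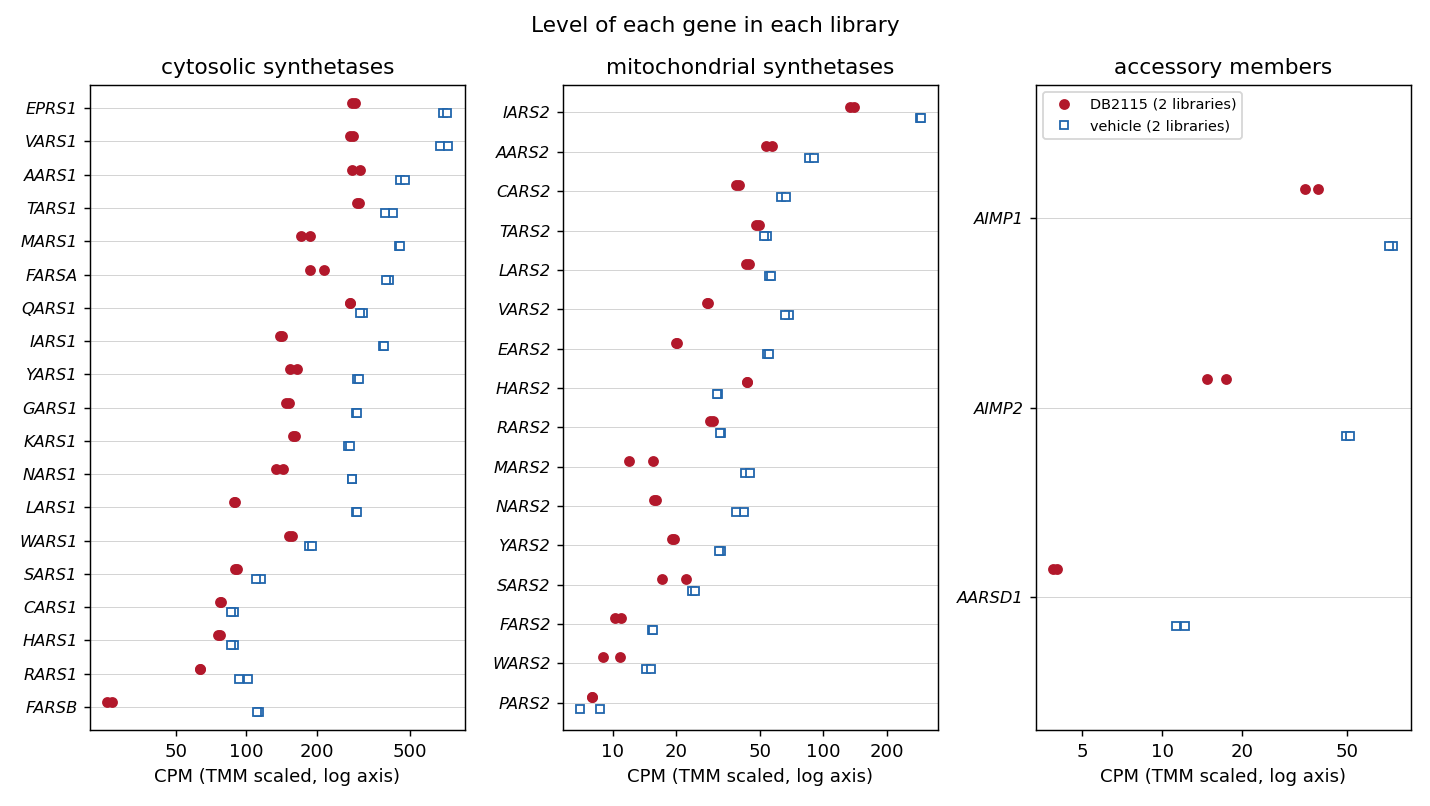
Level of each of the 38 genes in each library, in CPM after TMM scaling on a log axis, for cytosolic, mitochondrial and accessory genes. Filled circles are the 2 DB2115 libraries and open squares the 2 vehicle libraries. The circles lie left of the squares for 36 genes, right of them for HARS2, and between them for PARS2.

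Of the multisynthetase complex, 7 synthetases and both scaffold genes were among the members, and all 9 fell, 5 of them at least 2-fold, with a median log2 fold change of -1.29. LARS1, the leucyl-tRNA synthetase, which also relays leucine to the growth regulator mTORC1, lies on chromosome 5 (chr5:146113038-146182660, - strand). It had 88.8 and 89.6 CPM with DB2115, against 293 and 296 CPM in vehicle, a 3.31-fold lower level (log2 fold change -1.73, SE 0.06, adjusted p = 7.658e-11). IARS1 (isoleucine) had 139 and 142 CPM with DB2115, against 382 and 388 CPM in vehicle, 2.73-fold lower (log2 fold change -1.45, SE 0.06, adjusted p = 2.907e-10). These are the deepest falls among the complex's synthetases, and for both genes the libraries of a group lay close to each other.

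MARS1 charges both initiator and elongator methionine tRNA in the cytosol. Its level was 188 and 170 CPM with DB2115, against 447 and 454 CPM in vehicle, 2.52-fold lower (log2 fold change -1.33, SE 0.06, adjusted p = 1.662e-09). EPRS1 encodes a fused enzyme that charges glutamate and proline tRNAs, and among these genes it was one of the most highly counted. It had 284 and 292 CPM with DB2115, against 691 and 718 CPM in vehicle, 2.45-fold lower (log2 fold change -1.29, SE 0.06, adjusted p = 1.431e-09). The remaining synthetases of the complex fell by less. KARS1, whose gene makes both the cytosolic and the mitochondrial lysyl enzyme, had 161 and 158 CPM with DB2115, against 272 and 278 CPM in vehicle. RARS1 (arginine) had 63.1 and 63.1 CPM with DB2115, against 102 and 92.9 CPM in vehicle.

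QARS1, the glutaminyl enzyme, had the smallest change in the complex. It had 276 and 277 CPM with DB2115, against 314 and 307 CPM in vehicle, 1.12-fold lower (log2 fold change -0.17, SE 0.06, adjusted p = 0.0201). The log2 fold changes within the complex thus ran over a range from -1.73 (LARS1) to -0.17 (QARS1). With upper-quartile or total-count scaling QARS1 was no longer called, nor without either vehicle library, and its log2 fold change then lay between -0.21 and -0.07.

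AIMP2, a core scaffold of the complex, had 17.4 and 14.8 CPM with DB2115, against 49.3 and 50.9 CPM in vehicle, 3.11-fold lower (log2 fold change -1.64, SE 0.09, adjusted p = 4.553e-09). AIMP1, which joins the arginyl and glutaminyl enzymes to the complex, had 38.7 and 34.5 CPM with DB2115, against 74.6 and 71.7 CPM in vehicle (log2 fold change -0.998, SE 0.07, adjusted p = 9.186e-08). Both scaffold genes were therefore lower beyond the spread of their libraries, AIMP2 more than AIMP1. AARSD1, an alanyl-tRNA editing protein outside the complex, was the least abundant member, with 4.03 and 3.89 CPM with DB2115, against 11.3 and 12.2 CPM in vehicle. Its level was 2.96-fold lower (log2 fold change -1.56, SE 0.13, adjusted p = 2.806e-07). AARSD1 shares 1267 exonic bases on the same strand with the readthrough gene PTGES3L-AARSD1, and AIMP2 shares 532 exonic bases on opposite strands with EIF2AK1, so part of their reads cannot be assigned with certainty.

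The 12 cytosolic synthetases outside the complex all fell, 3 of them at least 2-fold, with a median log2 fold change of -0.78. FARSB, the beta subunit of the cytosolic phenylalanyl enzyme (chr2:222570536-222656337, - strand), had the largest fall of all 38 genes. It had 26.7 and 25.5 CPM with DB2115, against 114 and 111 CPM in vehicle, 4.31-fold lower (log2 fold change -2.11, SE 0.07, adjusted p = 4.919e-11). FARSA encodes the alpha subunit of the same enzyme, which works as a tetramer of equal numbers of both chains. FARSA had 215 and 187 CPM with DB2115, against 404 and 395 CPM in vehicle, 1.99-fold lower (log2 fold change -0.99, SE 0.07). The subunits thus fell by unequal amounts, and FARSA was the more abundant mRNA per length of exon, at 82.6 CPM per kilobase with DB2115 and 164 in vehicle, against 7.74 with DB2115 and 33.4 in vehicle for FARSB.

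VARS1, the valyl enzyme, which binds elongation factor 1, had 276 and 284 CPM with DB2115, against 674 and 723 CPM in vehicle, 2.49-fold lower (log2 fold change -1.32, SE 0.06, adjusted p = 1.687e-09). NARS1 (asparagine) had 144 and 134 CPM with DB2115, against 282 and 282 CPM in vehicle, 2.03-fold lower. GARS1, which like KARS1 serves both compartments from one gene, had 147 and 151 CPM with DB2115, against 294 and 297 CPM in vehicle. YARS1 (tyrosine) had 165 and 154 CPM with DB2115, against 296 and 303 CPM in vehicle, and AARS1 (alanine) 305 and 282 CPM with DB2115, against 453 and 474 CPM in vehicle. All 5 were lower by several times the distance between their replicate libraries.

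A further group of cytosolic genes changed little. TARS1 (threonine) had 303 and 298 CPM with DB2115, against 425 and 392 CPM in vehicle, 1.36-fold lower. SARS1 (serine) had 91.4 and 89.5 CPM with DB2115, against 116 and 110 CPM in vehicle, 1.25-fold lower. WARS1, the tryptophanyl gene and an interferon-induced one in many cell types, had 156 and 152 CPM with DB2115, against 185 and 190 CPM in vehicle (log2 fold change -0.28, SE 0.06, adjusted p = 7.755e-04). HARS1 (histidine) and CARS1 (cysteine) had the smallest falls beside QARS1. HARS1 had 77.1 and 75.9 CPM with DB2115, against 88.9 and 85.9 CPM in vehicle (log2 fold change -0.19, SE 0.06, adjusted p = 0.0155). CARS1 had 76.9 and 77.8 CPM with DB2115, against 88.1 and 85.5 CPM in vehicle (log2 fold change -0.17, SE 0.06, adjusted p = 0.0298). HARS1 and CARS1 lost their calls under the same alternatives as QARS1, and CARS1 also with DESeq2 (adjusted p = 0.061) and without DB2115 library A (adjusted p = 0.0574).

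**Figure D2:**
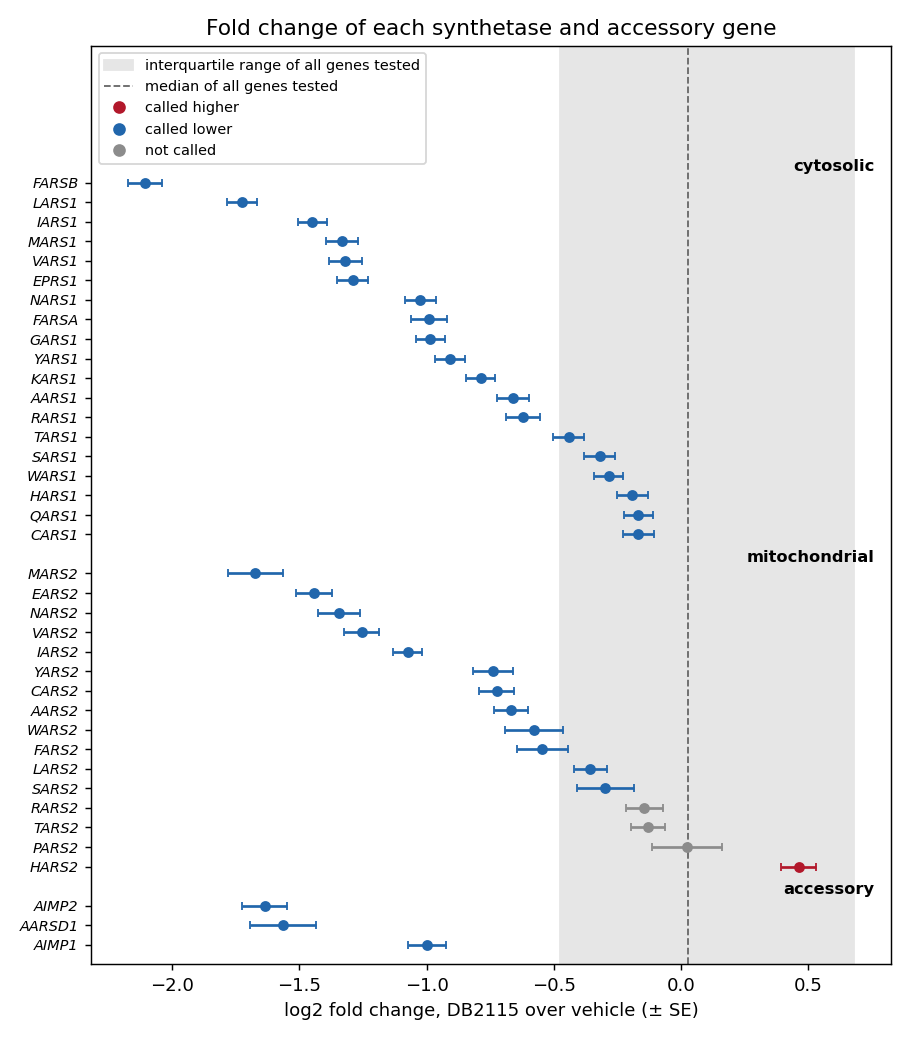
Log2 fold change of each gene, DB2115 over vehicle, with its SE as a bar (n = 2 libraries per group). Blue points were called lower, red higher and grey not called, the dashed line is the median of all genes tested (0.03), and the shaded band is their interquartile range (-0.48 to 0.68). Most points lie left of the band, with FARSB at -2.11 farthest out, and HARS2 alone is red.

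Among the 16 mitochondrial synthetases 12 fell, 5 of them at least 2-fold. MARS2, the mitochondrial methionyl enzyme (chr2:197705369-197708387, + strand), had the deepest fall, with 15.6 and 11.9 CPM with DB2115, against 42.7 and 44.9 CPM in vehicle, 3.19-fold lower (log2 fold change -1.67, SE 0.11, adjusted p = 2.659e-08). EARS2, which charges both glutamate and, as a first step, glutamine tRNA in the mitochondrion, had 20.0 and 20.3 CPM with DB2115, against 54.2 and 55.4 CPM in vehicle, 2.72-fold lower (log2 fold change -1.44, SE 0.07, adjusted p = 2.177e-09). NARS2 (asparagine) had 15.7 and 16.0 CPM with DB2115, against 41.9 and 38.7 CPM in vehicle, 2.54-fold lower (log2 fold change -1.35, SE 0.08, adjusted p = 1.398e-08). In each of these 3 genes the groups were far apart and the libraries of a group close together, least so for MARS2 with DB2115.

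VARS2 (valine) had 27.9 and 28.4 CPM with DB2115, against 68.8 and 65.7 CPM in vehicle, 2.39-fold lower (log2 fold change -1.26, SE 0.07, adjusted p = 5.181e-09). IARS2 (isoleucine), the most abundant mitochondrial synthetase mRNA, had 134 and 140 CPM with DB2115, against 288 and 290 CPM in vehicle, 2.11-fold lower. Smaller falls were called for 7 others. YARS2 (tyrosine) had 19.7 and 19.0 CPM with DB2115, against 32.5 and 32.1 CPM in vehicle, and CARS2 (cysteine) 38.7 and 39.9 CPM with DB2115, against 63.0 and 66.9 CPM in vehicle. AARS2 (alanine) had 57.2 and 53.3 CPM with DB2115, against 85.2 and 90.4 CPM in vehicle. WARS2 (tryptophan) had 9.02 and 10.9 CPM with DB2115, against 14.4 and 15.3 CPM in vehicle, and FARS2 (phenylalanine) 10.2 and 10.99 CPM with DB2115, against 15.3 and 15.6 CPM in vehicle. None of these 5 genes had overlapping groups.

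LARS2, the mitochondrial leucyl enzyme, had 44.3 and 43.1 CPM with DB2115, against 55.4 and 56.4 CPM in vehicle, 1.28-fold lower. SARS2 (serine) had 22.3 and 17.2 CPM with DB2115, against 23.9 and 24.7 CPM in vehicle (log2 fold change -0.30, SE 0.11, adjusted p = 0.033). The SARS2 call rested on DB2115 library B, without which the log2 fold change was -0.13 (adjusted p = 0.277), and it was also lost without either vehicle library. The remaining 3 mitochondrial genes missed the threshold for a call. RARS2 (arginine) had 30.1 and 28.96 CPM with DB2115, against 32.8 and 32.5 CPM in vehicle (adjusted p = 0.108). TARS2 (threonine) had 48.0 and 49.7 CPM with DB2115, against 54.3 and 52.6 CPM in vehicle (adjusted p = 0.105). PARS2 (proline) had 7.97 and 7.996 CPM with DB2115, against 8.71 and 7.02 CPM in vehicle (log2 fold change 0.02, SE 0.14, adjusted p = 0.887), the one member whose groups overlapped.

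HARS2, the mitochondrial histidyl enzyme (chr5:140691426-140699318, + strand), was the single member that rose. It had 43.2 and 43.5 CPM with DB2115, against 31.7 and 31.2 CPM in vehicle, 1.38-fold higher (log2 fold change 0.46, SE 0.07, adjusted p = 6.865e-05). The gene lies head to head with HARS1 (chr5:140673904-140691862, - strand), and the annotated exons of the pair share 437 bases on opposite strands. HARS2 also shares 152 exonic bases on the same strand with ZMAT2, its neighbour downstream, which had a log2 fold change of -0.11 (adjusted p = 0.194). HARS2 thus rose while both genes that share exonic bases with it had negative log2 fold changes, -0.19 for HARS1 and -0.11 for ZMAT2. The RefSeq starts of HARS1 and HARS2 on GRCh38.p14 lie 84 bases apart, and the stretch between them is shown because these divergent genes moved in opposite directions. It is given on the HARS2 strand with 15 bases past each start. Capitals mark the 2 matches to the ETS core CCGGAAG or its reverse complement, the letters bound by many ETS-family factors, 1 near each start. A match describes the letters and no more.
HARS1 and HARS2, chr5:140691355-140691469 (+ strand): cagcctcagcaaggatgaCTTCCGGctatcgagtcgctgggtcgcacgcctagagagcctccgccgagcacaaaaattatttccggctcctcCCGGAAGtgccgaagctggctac

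By catalytic class, of 9 mitochondrial class I genes 8 fell, with a median log2 fold change of -0.74, and of 7 mitochondrial class II genes 4 fell and 1 rose, with a median of -0.30. In the cytosol the 10 class I genes had a median of -1.10 and the 9 class II genes -0.79, and all 19 fell. Neither difference between classes was tested.

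Setting the cytosolic gene against the mitochondrial gene for the same amino acid within each library gave 17 pairs, with both phenylalanyl subunits paired with FARS2 and EPRS1 paired with EARS2 and with PARS2. The log2 ratio of cytosolic over mitochondrial CPM was lower with DB2115, without overlap of the groups, in 9 pairs, higher in 5, and overlapping in 3. For the levels of single genes, 81.3% of all genes tested had groups without overlap. No such share was computed for ratios of other gene pairs, so whether separation of a ratio is particular to these pairs is not known. The balance of lower and higher ratios was not tested. LARS1 over LARS2 had a log2 ratio of 1.00 and 1.06 with DB2115, against 2.40 and 2.40 in vehicle, a difference of -1.37. FARSB over FARS2 had 1.38 and 1.21 with DB2115, against 2.89 and 2.83 in vehicle, a difference of -1.56, and EPRS1 over PARS2 differed by -1.32. In these 3 pairs the cytosolic gene fell by more than 2-fold, while LARS2 and FARS2 fell by less and PARS2 was not called.

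The histidine pair also had a lower ratio. HARS1 over HARS2 had a log2 ratio of 0.84 and 0.80 with DB2115, against 1.49 and 1.46 in vehicle, with the cytosolic gene slightly lower and the mitochondrial gene higher. Smaller negative differences were found for arginine (-0.48), FARSA over FARS2 (-0.45), isoleucine (-0.38), threonine (-0.31) and tyrosine (-0.17). The opposite direction was largest for cysteine, where CARS1 over CARS2 had 0.99 and 0.96 with DB2115, against 0.48 and 0.35 in vehicle, a difference of 0.56. Methionine (0.35), asparagine (0.32), tryptophan (0.30) and EPRS1 over EARS2 (0.15) also had higher ratios with DB2115. For alanine, serine and valine the groups overlapped, with differences of 0.01, -0.01 and -0.06. For a single pair the exact permutation test can give no p below 0.333, which is the value of each pair without overlap.

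**Figure D3:**
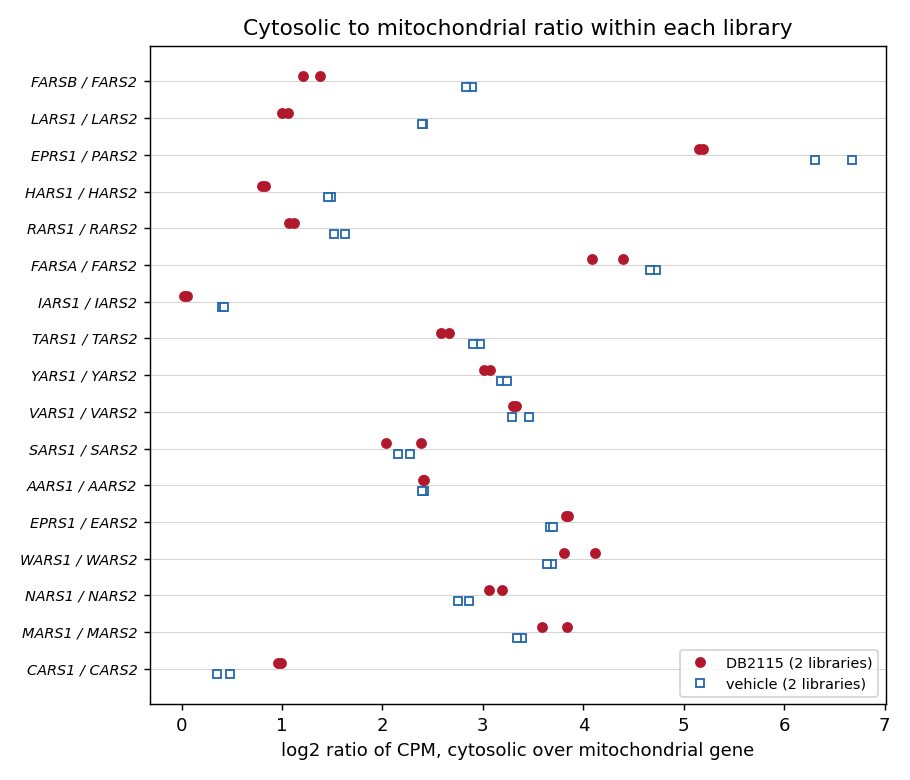
Log2 ratio of the cytosolic over the mitochondrial gene for each of 17 pairs in each library. Filled circles are DB2115 libraries and open squares vehicle libraries. The 9 pairs with lower ratios include LARS1 and LARS2 (1.00 and 1.06 with DB2115, 2.40 and 2.40 in vehicle), and cysteine has the largest move to higher ratios.

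Compared per kilobase of exon, so that genes can be set against each other, cytosolic synthetase mRNAs were the more abundant in both groups. The length used was that of all annotated exons of a gene merged, such as 2435 bases for FARSA and 10037 for CARS1. It can exceed the length of a single mRNA, so levels per kilobase and their ranks depend in part on the annotation. Their median was 25.4 CPM per kilobase with DB2115, against 64.1 in vehicle, and that of the mitochondrial genes was 5.58 with DB2115, against 8.99 in vehicle. FARSA ranked first in both groups, with 82.6 CPM per kilobase with DB2115 and 164 in vehicle, and AARSD1 last, with 1.07 with DB2115 and 3.16 in vehicle. The order shifted below FARSA. QARS1 had rank 3 with DB2115 at 58.7 CPM per kilobase and rank 10 in vehicle at 65.9, and AARS1 had rank 2 with DB2115 at 65.3 and rank 4 in vehicle at 103. VARS1 had rank 6 with DB2115 at 46.1 and rank 3 in vehicle at 115. Across the 38 genes the levels of the groups had a Spearman correlation of 0.922, and vehicle level and log2 fold change had one of -0.286. Both are descriptions over genes that share the same 4 libraries.

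The sources used here do not give the strandedness of the counts, so reads from overlapping genes cannot be told apart. Exonic bases were shared with another annotated gene by 22 members and by none for 16. An overlapping gene with at least 25% of the member's counts was found for 10 members. MARS1 shares 519 exonic bases with ARHGAP9, a gene on the other strand, which had 241 and 225 CPM with DB2115, against 97.9 and 89.0 CPM in vehicle (log2 fold change 1.32, adjusted p = 2.842e-09). MARS1 fell while that neighbour rose. SARS2 shares 349 exonic bases with MRPS12, a mitochondrial ribosomal protein gene read from a nearby divergent start, which had a log2 fold change of -1.29 (adjusted p = 1.528e-07). On its own strand SARS2 shares 1492 exonic bases, 46.2% of its total, with ENSG00000269547, which had 0 counts. VARS2 shares 1858 exonic bases (22.0%) on the same strand with GTF2H4, which had a log2 fold change of -0.46. The part of these overlaps in the levels of SARS2 and VARS2 was not tested. EARS2 shares 370 with UBFD1, whose log2 fold change was -0.02 (adjusted p = 0.766) while EARS2 had -1.44. In all, 14 members have the start of another gene on the opposite strand within 1000 bases. FARS2 lies 105 bases from LYRM4, an iron-sulfur cluster assembly gene, which had a log2 fold change of -0.98, and AIMP2 lies 120 bases from PMS2, a mismatch repair gene, which had -0.73.

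Promoter windows of 300 bases (250 before to 50 after each start, RefSeq, GRCh38.p14) were found for 33 of the 38 members, in 45 windows. LARS1, VARS1, YARS1, AARS2 and VARS2 had no entry. The first motif searched, on both strands, was TGATGNAA, the core letters of the C/EBP-ATF composite element through which ATF4 acts on amino acid response genes. It was present in 8 of the 33 members, against 3.62% of 35116 windows and 2.77% of the 11296 tested genes with a window. By compartment the match was in 7 of 16 cytosolic genes and 1 of 14 mitochondrial genes. The stretches of these 8 genes, YARS2 being the mitochondrial one, are shown so that the matches can be compared, each on the strand of its gene with up to 24 bases either side and at most 30 bases past the start. Capitals mark the match or its reverse complement.
AARS1, chr16:70289662-70289717 (- strand): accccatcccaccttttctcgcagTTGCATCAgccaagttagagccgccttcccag
CARS1, chr11:3057394-3057449 (- strand): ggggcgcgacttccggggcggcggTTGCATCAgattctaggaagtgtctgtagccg
GARS1, chr7:30594821-30594876 (+ strand): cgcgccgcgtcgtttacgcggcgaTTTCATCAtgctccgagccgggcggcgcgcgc
IARS1, chr9:92293679-92293734 (- strand): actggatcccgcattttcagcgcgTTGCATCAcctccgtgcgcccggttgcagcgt
MARS1, chr12:57488040-57488095 (+ strand): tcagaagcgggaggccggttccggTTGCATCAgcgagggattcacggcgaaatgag
NARS1, chr18:57621807-57621846 (- strand): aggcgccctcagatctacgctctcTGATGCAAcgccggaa
TARS1, chr5:33440943-33440994 (+ strand): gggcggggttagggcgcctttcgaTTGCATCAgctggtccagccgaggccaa
YARS2, chr12:32756063-32756118 (- strand): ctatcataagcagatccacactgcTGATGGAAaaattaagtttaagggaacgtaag
In 6 of these 8 the capitals lie close to the annotated start, no more than 33 bases before it, and in AARS1 and YARS2 they lie 187 and 197 bases before it. The cytosolic genes with the match had a median log2 fold change of -0.98 (IARS1 -1.45, MARS1 -1.33, NARS1 -1.02, GARS1 -0.98, AARS1 -0.66, TARS1 -0.44 and CARS1 -0.17). The 9 cytosolic genes with a window and no match had a median of -0.62, from FARSB at -2.11 to QARS1 at -0.17. The range with the match lay within the range without it.

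The second motif, CACGTG, is the E-box bound by MYC, MAX and related factors and reads the same on both strands. It was present in 5 of the 33 members, against 7.26% of windows and 12.5% of tested genes with a window. They were MARS2, EARS2, CARS2, IARS1 and AIMP2. Their stretches are shown because 4 of these genes are among the 12 members with the largest changes, a fact noticed after their values were seen. Capitals mark the E-box.
MARS2, chr2:197705334-197705387 (+ strand): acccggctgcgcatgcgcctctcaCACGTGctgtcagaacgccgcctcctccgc
EARS2, chr16:23557336-23557389 (- strand): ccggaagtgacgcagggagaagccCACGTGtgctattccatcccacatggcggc
CARS2, chr13:110706489-110706542 (- strand): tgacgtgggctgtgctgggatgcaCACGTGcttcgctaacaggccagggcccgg
IARS1, chr9:92293854-92293907 (- strand): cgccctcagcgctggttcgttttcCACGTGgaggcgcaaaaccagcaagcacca
AIMP2, chr7:6009466-6009519 (+ strand): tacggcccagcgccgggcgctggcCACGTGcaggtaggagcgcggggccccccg
MARS2, EARS2, IARS1 and AIMP2 had log2 fold changes of -1.67, -1.44, -1.45 and -1.64, and CARS2 had -0.72. Of the genes with a window and no E-box, the 11 mitochondrial ones had a median of -0.36, the 15 cytosolic ones -0.66 and the 2 accessory ones -1.28. FARSB, with the largest fall of all, had no E-box in its window. The ETS core CCGGAAG was present in 16 members, against 21.5% of tested genes with a window, among them 9 of 16 cytosolic genes with a median log2 fold change of -0.44. The 7 cytosolic genes without it had a median of -1.29. GAGGAAG, the letters favoured by PU.1, was present in 3 members (AIMP1, CARS1 and TARS1), against 19.2% of tested genes with a window. These are counts of letters in fixed windows, with no test, and binding of the factors was not measured here.

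The neighbouring pathways were described by 8 lists, 170 genes in all, of which 165 were tested: 118 fell, 23 rose and 24 were not called, with a median log2 fold change of -0.64. In the list of the amino acid response and ATF4 targets, 26 of 29 genes fell, 15 of them at least 2-fold, with a median of -1.02. The genes with the smallest adjusted p were SLC7A1, SLC7A5, SLC7A11 and PSAT1, and the largest fall was that of ASNS, the asparagine synthetase (log2 fold change -2.68). SLC7A1, the cationic amino acid carrier, had 56.2 and 59.7 CPM with DB2115, against 284 and 300 CPM in vehicle (log2 fold change -2.33, adjusted p = 1.628e-11). SLC7A5, a large neutral amino acid carrier, had a log2 fold change of -2.08, SLC7A11, the cystine carrier, -2.48, and PSAT1, a serine synthesis enzyme, -1.75. ATF4 itself had 340 and 331 CPM with DB2115, against 498 and 460 CPM in vehicle, 1.43-fold lower (adjusted p = 1.017e-05). CEBPB, a C/EBP factor, and NUPR1, a stress regulator, were the genes of this list that rose, with log2 fold changes of 1.15 and 3.36, and SESN2 was not called (-0.07, adjusted p = 0.439). NUPR1 was near the detection limit in vehicle, at 0.285 and 0.170 CPM.

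Of the 16 eIF2 kinases and regulators 9 fell and 3 rose. EIF2B3 (-1.53), EIF2B1 (-0.90) and EIF2S1 (-1.05), which encode subunits of eIF2B and eIF2, and IMPACT (-1.67), an inhibitor of GCN2, had the smallest adjusted p values of the list. EIF2AK4, which encodes GCN2, had 44.9 and 42.8 CPM with DB2115, against 53.1 and 53.9 CPM in vehicle (log2 fold change -0.29, adjusted p = 2.168e-03). The 3 that rose were EIF2AK2 (0.67), EIF2AK3 (0.32) and PPP1R15A (0.53), the kinases PKR and PERK and an eIF2 phosphatase subunit.

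Genes that act on aminoacyl-tRNA after charging were mixed, with 5 of 8 tested lower and 1 higher (2 higher without DB2115 library B). PTRH2 (-1.75), ANKRD16 (-2.41), DTD1 (-1.04) and DTD2 (-2.17), which hydrolyse or proofread aminoacyl- or peptidyl-tRNA or, for ANKRD16 in mouse, assist alanyl-tRNA proofreading, fell. TUFM, the mitochondrial elongation factor that delivers charged tRNA, also fell, with a log2 fold change of -0.65. GTPBP2, a ribosome rescue gene, rose, with 119 and 114 CPM with DB2115, against 68.6 and 65.2 CPM in vehicle (log2 fold change 0.80, adjusted p = 1.784e-07). EEF1A1, the cytosolic delivery factor, had 20150 and 20320 CPM with DB2115, against 20920 and 19750 CPM in vehicle, with overlapping groups. All 4 genes for mitochondrial glutaminyl-tRNA and formyl-methionyl-tRNA synthesis fell, QRSL1 (-0.80), GATC (-0.63), GATB (-0.41) and MTFMT (-0.68). These stand beside EARS2 and MARS2, whose enzymes make the substrates of those steps, at -1.44 and -1.67.

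Of 57 tRNA modification genes 49 fell and 2 rose, with a median log2 fold change of -0.75. PUS7, a pseudouridine synthase, had 4.45 and 3.09 CPM with DB2115, against 53.0 and 49.8 CPM in vehicle, 13.6-fold lower (log2 fold change -3.77, adjusted p = 7.688e-11), a larger fall than any synthetase had. PUS1, another pseudouridine synthase, had a log2 fold change of -1.91, TRMT61A, the catalytic subunit of the 1-methyladenosine enzyme, -1.83, and WDR4, the partner of the 7-methylguanosine enzyme, -1.81. The genes of this list that rose were PUS10 and ADAT3, with log2 fold changes of 0.68 and 0.34. Of 26 genes for tRNA end maturation, splicing and export 17 fell and 2 rose (ELAC1 and ANGEL2), with a median of -0.47. XPOT, the tRNA exporter, had 225 and 212 CPM with DB2115, against 625 and 609 CPM in vehicle (log2 fold change -1.50, adjusted p = 4.451e-10). POP1, of RNase P, had -1.64, ELAC2, the 3' end nuclease, -1.28, and TRMT10C, of the mitochondrial RNase P, -1.53. Without DB2115 library A, vehicle library A or vehicle library B, each of these lists had 1 gene called higher.

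In the selenocysteine list 3 of 7 genes fell, led by SEPHS1 (-1.17) and SECISBP2 (-0.90), and 2 rose, SEPHS2 (0.33) and TRNAU1AP (0.32). Without vehicle library B the calls in this list numbered 2. The interferon-gamma list was included because WARS1 responds to interferon-gamma. Of its 22 genes 18 were tested, 11 rose and 5 fell, with a median log2 fold change of 0.66, and genes silent in vehicle could pass the count filter only by rising. SOCS1, a feedback inhibitor, had a log2 fold change of 2.29, PSMB9, an immunoproteasome subunit, 1.32, and STAT2, a signalling factor, 1.18, while IRF8, a myeloid transcription factor, fell with -1.49. WARS1 itself had a log2 fold change of -0.28.

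**Figure D4:**
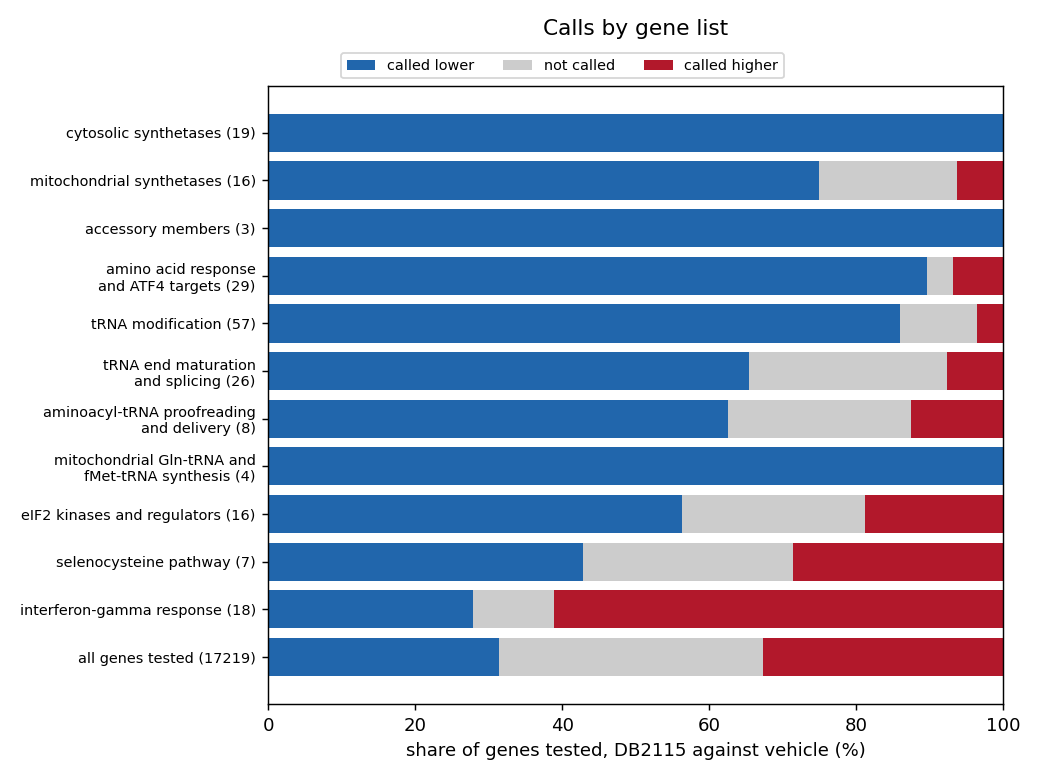
Share of tested genes called lower (blue), not called (grey) and called higher (red) with DB2115 in each list, in percent, with the number tested in parentheses. All genes tested, the lowest bar, stand at 31.3% lower and 32.7% higher. The synthetase, amino acid response and tRNA modification lists have a larger share lower, between 75% and 100%, and the interferon-gamma list has more genes higher than lower.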

How the data were processed

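The authors deposited raw read counts per gene, not normalised, for 58381 Ensembl gene identifiers. Build hg38 and the tools FastQC, STAR and DESeq2 are listed, without versions, per the submitters' processing notes. How reads were assigned to genes, and whether by strand, is not stated there. Coordinates were taken from GENCODE release 29 (GRCh38), in which 58261 of the identifiers were found. Symbols came from a separate list of gene names, or from GENCODE where that list had none. The 2 pooled columns were left out, and total counts per library ran from 36547900 to 42446253. Replicate libraries differed beyond sampling (median chi-square 1.89 for DB2115 and 1.47 for vehicle, against 0.455).

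Counts were filtered with filterByExpr (minimum count 10, minimum total 15), scaled by TMM and compared by the quasi-likelihood test of edgeR 4.0.16 under R 4.3.3, with Benjamini-Hochberg adjustment over all 17219 genes and a threshold of 0.05. The common biological coefficient of variation was 6.33%. Standard errors were derived from each F statistic. Sums and ratios were tested by exact permutation in scipy 1.17.1. On simulated counts for 16731 genes the same test recovered 63.8% of 47 genes changed 1.5-fold and 91.8% of 49 changed 2-fold. In that run 9 of 179 calls were false. Few genes were changed in the simulation, about equally up and down, with the same dispersion for every gene. In the data 31.3% of genes were called lower and 32.7% higher, so these rates need not hold for the calls reported. Full values are given for the 12 members with the largest called changes, those not called, and each cytosolic and mitochondrial pair, and up to 4 called genes of each neighbouring list with the smallest adjusted p. Genes of those lists that rose, ATF4, EIF2AK4, EEF1A1, TUFM, SESN2 and ASNS were named after their values were seen. The members and lists were chosen with earlier results of these data known. Alternatives covered scaling, filters, thresholds, DESeq2 1.42.0, limma-voom (limma 3.58.1), a replicate block, all 6 columns, removal of mitochondrially encoded genes, and each library left out in turn.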

Additional observations from a re-analysis of the deposited data

How the results depend on the processing

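Of 608 values of single members under an alternative, 567 kept their direction and their side of the threshold, 39 were no longer called and 2 became called (RARS2 and TARS2 with all 6 columns, which count the pooled columns as libraries). The median log2 fold change of the cytosolic genes was -0.813 with upper-quartile factors, -0.814 with total counts, -0.826 with a minimum of 1 CPM in at least 3 libraries, -0.929 with all 6 columns, and -0.975 to -0.869 with each library left out in turn. That of the mitochondrial genes was -0.527, -0.527, -0.540 and -0.644 under the same 4 settings, -0.636 with no filter on low counts, and -0.677 to -0.602 with each library left out. Upper-quartile and total-count scaling moved the median of all genes to 0.121, with 6298 higher and 4699 lower, and 6292 higher and 4698 lower. With a fold of at least 1.5 required, 7210 genes were called in all, 3128 of them lower, and 8 mitochondrial genes, 0 of them higher, since HARS2 changed by less. CARS1, HARS1, QARS1 and SARS2 were lost with upper-quartile and total-count scaling, with the 1 CPM filter, without either vehicle library and at adjusted p under 0.01. HARS2 stayed higher, with log2 fold changes of 0.429 to 0.557. The columns carry the letters A and B in both groups. The A minus B deviations of the 2 groups correlated at 0.0159 across genes, so the letters showed no shift common to both groups. Whether the libraries were paired cannot be settled this way, because paired libraries need not share such a shift. A replicate block on the letters called 19 cytosolic and 13 mitochondrial genes, and 5810 genes higher and 5614 lower.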
